A study of Mus musculus with 21 samples.

Results

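The genes of major histocompatibility complex (MHC) class II antigen presentation were followed across 21 RNA-seq libraries of mouse aortic valves. The 7 genes, taken by their symbols, were Cd74, H2-Aa, H2-Ab1, H2-Eb1, H2-DMa, H2-DMb1 and Ciita, of 20872 genes in the deposited table, and each had reads in each of the 21 libraries. The study asked how an N1 (Notch1) haploinsufficiency in telomere-shortened mice, the valve stenosis that some of these mice develop, and the compound XCT790 act on the valve. Notch1 encodes a receptor for ligands on neighbouring cells. XCT790 is an inverse agonist of the nuclear receptor ERRα, and stenosis is a narrowing of the valve opening. All mice of all 5 groups, the WT group included, were Terc-/- of generation 2 and so lacked the RNA template of telomerase.

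The WT group (N1+/+, healthy valve, control solvent) had 4 libraries. The other mice carried 1 intact copy of N1. Their healthy valves gave 6 libraries after solvent (N1het healthy) and 5 after the compound (N1het healthy XCT790). Their stenotic valves gave 3 libraries after solvent (N1het stenosis) and 3 after the compound (N1het stenosis XCT790). XCT790 was given by daily intraperitoneal injection at 5 mg/kg/day, and both it and the solvent were given for 4 weeks, beginning when the mice were 4 weeks old. The groups follow the sample titles. In 6 libraries the agent field of the labels says otherwise: it gives solvent for N1het healthy XCT790 1, 2 and 3 and XCT790 for N1het stenosis 1, 2 and 3. No label states that the replicates of a group are different animals, so the p-values measure the spread between these samples, which may be technical.

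MHC class II molecules are pairs of an α and a β chain on the surface of macrophages, dendritic cells and B cells, where they show peptides from engulfed proteins to CD4+ T cells. The pair is built together with the invariant chain CD74, which blocks the peptide groove until endosomal proteases cut it away, and the H2-DM pair then exchanges its remnant for a peptide. Transcription of the chains, of CD74 and of H2-DM runs through promoters of a shared design, on which the factors RFX, CREB and NF-Y assemble and recruit the transactivator CIITA.

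The libraries held 8.42 to 27.3 megareads (M), and the median was 13.7 M. In the 6 deepest libraries, each above 16 M, the mitochondrial share of reads was 0.0581% to 0.521%, against 0.851% to 8.40% in the other 15. This deep set comprised 1 WT library, 2 of N1het healthy, 2 of N1het healthy XCT790 valves and, of the stenotic valves, 1 from N1het stenosis XCT790. Notch1 ranged from 26.6 to 46.5 FPKM in WT and from 19.4 to 50.03 FPKM over the N1het libraries, which overlapped, and the deposited table does not list Terc, so genotypes rest on the labels. FPKM are fragments scaled by the length of the gene and the total of the library. Markers of heart muscle cells differed widely between libraries of 1 group, from a mean log2(FPKM + 1) of 0.84 to 6.54 within WT alone. In 4 of the 5 groups the library highest in these markers (WT 4 at 6.54, N1het healthy 6 at 7.09, N1het stenosis 2 at 6.45 and N1het stenosis XCT790 1 at 5.74) was the one with the lowest mean log2 level of the 7 class II genes. The exception was N1het healthy XCT790, where it was the one with the highest (replicate 5, markers at 5.23). Markers of valve interstitial cells, the fibroblast-like cells of the valve, were present throughout, at 7.63 to 9.09 on the same scale, and were lower in N1het stenosis. The 10 of them summed to 5667 to 6411 FPKM there, to 7640 to 12236 FPKM in N1het healthy and to 7354 to 8926 FPKM in WT, so that N1het stenosis overlapped neither.

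RefSeq promoter windows of the mouse build GRCm38.p6 were at hand for 4 of the 7 genes (H2-Aa, H2-Eb1, H2-DMa and H2-DMb1). The files use the build mm9, and no coordinate of theirs is given. The 150 bases before the start are printed 5′ to 3′ for an α chain gene, a β chain gene and a peptide editor gene. Capitals mark TGATTGG, which holds the reverse complement of CCAAT (the core that NF-Y binds, called the Y box in class II promoters), AACNGATG upstream of it, and TGACGTCA (2 overlapping copies of TGACG, the core of the site that CREB binds, on opposite strands). H2-Aa lies on the minus strand (chr17:34287824-34287973), H2-Eb1 on the plus strand (chr17:34305717-34305866) and H2-DMb1 on the plus strand (chr17:34153041-34153190).
H2-Aa: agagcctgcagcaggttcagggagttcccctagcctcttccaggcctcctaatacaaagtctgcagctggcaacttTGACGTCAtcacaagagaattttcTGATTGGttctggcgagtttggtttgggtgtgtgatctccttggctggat
H2-Eb1: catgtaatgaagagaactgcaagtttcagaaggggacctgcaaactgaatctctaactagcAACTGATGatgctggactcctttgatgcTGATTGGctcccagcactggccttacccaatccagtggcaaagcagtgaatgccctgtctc
H2-DMb1: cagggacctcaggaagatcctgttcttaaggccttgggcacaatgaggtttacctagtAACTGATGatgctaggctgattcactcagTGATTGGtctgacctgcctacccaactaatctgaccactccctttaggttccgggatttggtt

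TGATTGG began at position -50 in H2-Aa, -61 in H2-Eb1 and -63 in H2-DMb1, counted from the transcription start. AACNGATG began at -89 in H2-Eb1 and -92 in H2-DMb1, and was absent from the H2-Aa window. Both were searched on both strands, and both were chosen after the windows had been read. Of 32851 promoter windows of 300 bases, 7.82% held TGATTGG, 2.32% held AACNGATG and 0.186% held both. Of the motifs taken from knowledge of these promoters, CCAAT was in 37.4% of all windows, CTGATTGG, which contains TGATTGG, in 4.10%, TGACG in 20.8% and GATGNNTCA in 3.43%. GATGNNTCA was found in no class II window, TGACG in that of H2-Aa alone among the class II windows, and the H2-DMa windows held neither TGATTGG nor AACNGATG. A match describes these letters and nothing more.

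The invariant chain and the class II chains were among the most abundant transcripts of the valve. Ranked by mean FPKM over the 21 libraries, Cd74 was 56th of 20872 genes, with a mean of 1175 FPKM. H2-Aa, the α chain of the I-A molecule, was 79th with 697 FPKM, and H2-Ab1, its β chain, was 80th with 688 FPKM. H2-Eb1, the β chain of the I-E molecule, was 193rd with 286 FPKM. H2-DMa and H2-DMb1, the chains of the peptide editor, were 903rd and 2231st with 68.3 and 31.7 FPKM, and Ciita, whose product switches on the others, was 11265th with 3.25 FPKM.

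This order held within nearly every library. Cd74 was above H2-Aa and H2-Ab1 in 21 of 21 libraries, both were above H2-Eb1 in 21 of 21, and H2-Eb1 was above H2-DMa in 21 of 21. H2-DMa was above H2-DMb1 in 19 of 21, and H2-DMb1 was above Ciita in 20 of 21. The α and β chain of I-A did not differ in order, as H2-Aa was the higher of the pair in 11 of 21 libraries. H2-DMb1 has a near-identical copy, H2-DMb2, and how the authors' counting divided reads between them is not stated in the labels or headers, so its level is uncertain.

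Cd74, the invariant chain, had 1217, 1521, 1318 and 524 FPKM in WT valves and 503 to 1156 FPKM with a median of 933 in the 6 N1het healthy libraries. With XCT790, healthy N1het valves had 1062, 899.6, 1635, 887 and 3150.0 FPKM. It had 827, 697 and 1937 FPKM in N1het stenosis and 524, 1279 and 1833 FPKM in N1het stenosis XCT790. A single library, N1het healthy XCT790 5, lay far above all others, 1 library of each stenotic group was high, and the ranges of all 5 groups overlapped.

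H2-Aa had 604, 875, 678 and 351 FPKM in WT and 196 to 571 FPKM with a median of 439.5 in N1het healthy valves. In N1het healthy XCT790 valves it had 479.5, 457, 1212, 670.5 and 1969 FPKM. It had 643, 458 and 1408.5 FPKM in N1het stenosis and 429.6, 601 and 1192 FPKM in N1het stenosis XCT790. The high libraries were the ones in which Cd74 was high, and N1het healthy 6 was the lowest of all.

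H2-Ab1, the partner of H2-Aa, had 598, 1029.5, 679 and 117 FPKM in WT and 198 to 779.9 FPKM with a median of 574 in N1het healthy valves. In N1het healthy XCT790 it had 552, 386, 1105, 580.1 and 1643 FPKM. It had 609, 476 and 1141 FPKM in N1het stenosis and 366, 819.9 and 1071 FPKM in N1het stenosis XCT790. WT 4 was the lowest library, and all groups overlapped.

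H2-Eb1 had 199.6, 434, 286 and 90.4 FPKM in WT and 108.5 to 268 FPKM with a median of 159 in N1het healthy valves. In N1het healthy XCT790 it had 226, 206, 456, 294 and 749 FPKM. It had 235, 205 and 641 FPKM in N1het stenosis and 179, 292 and 467 FPKM in N1het stenosis XCT790. The same libraries stood out as for H2-Aa: N1het healthy XCT790 5 and N1het stenosis 3 were the highest of all 21 for both genes.

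H2-DMa, the α chain of the peptide editor, had 34.6, 112, 82.03 and 29.6 FPKM in WT and 8.35 to 65.3 FPKM with a median of 40.4 in N1het healthy valves. In N1het healthy XCT790 it had 44.2, 46.2, 115, 47.2 and 197 FPKM. It had 45.1, 72.3 and 163 FPKM in N1het stenosis and 55.5, 92.6 and 71.2 FPKM in N1het stenosis XCT790. The treated and the stenotic libraries all lay above the N1het healthy median, yet their ranges reached into that of N1het healthy. H2-DMb1, its β chain, ran from 2.85 FPKM in N1het healthy XCT790 4 to 70.05 FPKM in WT 2, and overlapped between all groups.

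Ciita had 2.14, 4.31, 0.433 and 4.28 FPKM in WT and 1.18 to 5.30 FPKM with a median of 2.88 in N1het healthy valves. In N1het healthy XCT790 it had 3.19, 1.30, 4.50, 4.39 and 13.6 FPKM. It had 1.80, 0.208 and 3.02 FPKM in N1het stenosis and 2.12, 3.06 and 0.734 FPKM in N1het stenosis XCT790. These levels rest on 10 to 854 reads with a median of 213, whereas H2-Aa had 2747 to 24838 reads. For the 10 reads of N1het stenosis 2, the exact Poisson 95% interval is 0.0995 to 0.382 FPKM, and for the 854 reads of N1het healthy XCT790 5 it is 12.7 to 14.6 FPKM. The intervals of the lowest and the highest of the 21 libraries thus did not overlap. These intervals cover counting error only, because amplification without molecular identifiers can count 1 molecule many times.

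**Figure D1:**
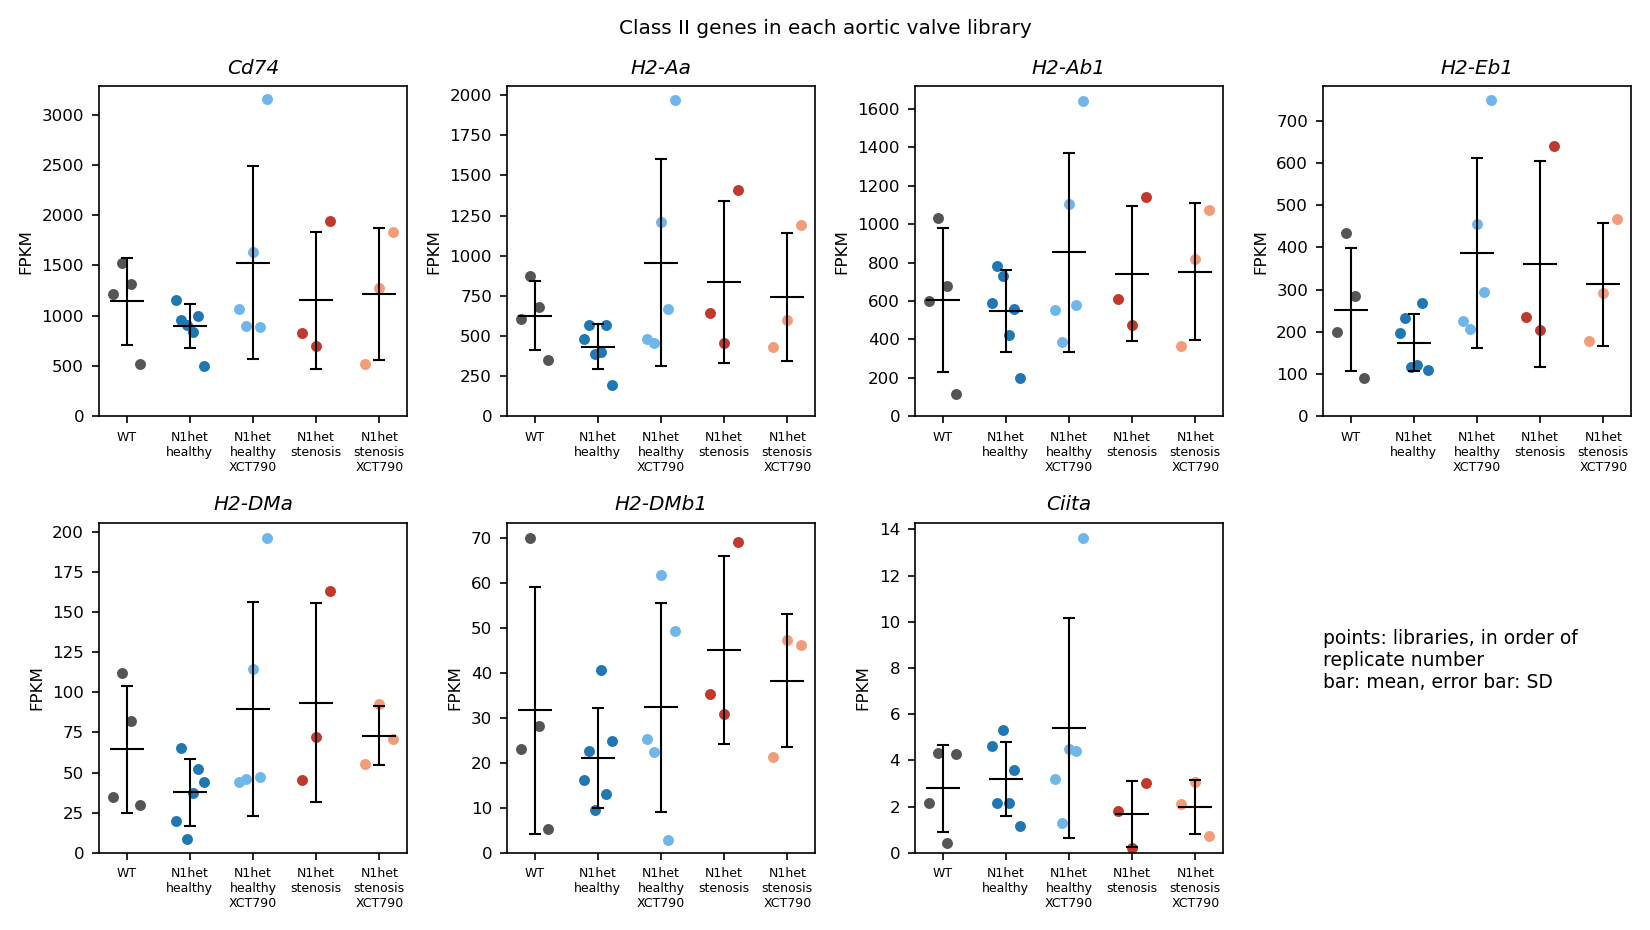
Level in FPKM (vertical axis, linear from 0) of each class II gene in the 5 groups, with 1 point per library in order of replicate number, the mean as a bar and the SD as an error bar. N1het healthy XCT790 5 is the highest point for Cd74 (3150.0 FPKM), H2-Aa, H2-Ab1, H2-Eb1, H2-DMa and Ciita, and every group overlaps the others.

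By group means, N1het healthy valves were the lowest of the 5 groups for 6 of the 7 genes, Ciita being the exception. Cd74 averaged 894 ± 219 FPKM there (SD, n = 6), against 1145 ± 433 in WT (n = 4), 1153 ± 681 in N1het stenosis (n = 3), 1212 ± 657 in N1het stenosis XCT790 (n = 3) and 1527 ± 957 in N1het healthy XCT790 (n = 5). H2-Eb1 followed with 174 ± 67.7, 253 ± 145, 360.4 ± 243, 313 ± 145 and 386 ± 226 FPKM in the same group order. Ciita was lowest in N1het stenosis, at 1.68 ± 1.41 FPKM, and highest in N1het healthy XCT790, at 5.40 ± 4.77 FPKM. For each of the 7 genes, neighbours in the order of group means differed by less than the larger SD of the pair.

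Differences were tested with limma on log2(FPKM + 1), a scale that understates the change of low genes, over the 14966 genes with a mean of at least 1 FPKM. All 7 class II genes passed that filter. A gene was called when its Benjamini-Hochberg adjusted p over all genes was under 0.05. The comparisons below share libraries, and N1het healthy valves enter several of them.

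N1 haploinsufficiency without stenosis came with no called class II gene. N1het healthy valves lay below WT for 5 of 7 genes, beside 42.4% of all genes, with a median log2 difference of -0.29 beside 0.09 over all genes tested. H2-DMa differed by -0.80 ± 0.54 (SE; limma adjusted p = 0.757), H2-Aa by -0.54 ± 0.42 (adjusted p = 0.805), H2-Ab1 by 0.09 ± 0.53 (adjusted p = 0.983) and Ciita by 0.22 ± 0.51 (adjusted p = 0.947). Of the class II genes 0 of 7 were called, beside 0% of all genes, and 0 of 7 had an unadjusted p under 0.05, beside 7.42%. With limma's voom on the reads recovered from the FPKM, 0 of 7 were called as well. The 95% interval of the H2-Aa difference ran from -1.41 to 0.34. The median was -0.08 without WT 2, -0.79 without WT 4 and -0.13 with the heart muscle marker level as a covariate.

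Stenosis came with higher means of the peptide editor and of the class II chains, none of which passed the test. Against N1het healthy valves, both on solvent by title, H2-DMa lay at 93.6 ± 61.9 FPKM (SD, n = 3) against 37.8 ± 20.9 (n = 6), a log2 difference of 1.34 ± 0.59 (SE; limma adjusted p = 0.468). H2-DMb1 differed by 1.11 ± 0.72 (adjusted p = 0.682), H2-Eb1 by 0.94 ± 0.48 (adjusted p = 0.562) and H2-Aa by 0.86 ± 0.46 (adjusted p = 0.588). Cd74 differed by 0.26 ± 0.44 (adjusted p = 0.901), and Ciita was the gene with a lower mean, at -0.71 ± 0.56 (adjusted p = 0.755). In all, 6 of 7 had a positive difference, beside 46.8% of all genes, and their median was 0.86 beside -0.04. Of the class II genes 0 of 7 were called, beside 0.0334% of all genes, and 1 of 7 (H2-DMa) had an unadjusted p under 0.05, beside 9.6%. Voom called 0 of 7. The groups overlapped for each of the 7 genes, while 2.72% of all genes were higher and 2.74% lower in the stenotic group without overlap. The median was 0.40 without N1het stenosis 3, the stenotic library highest in these genes, and 1.21 without N1het stenosis 2. With the level of macrophage markers as a covariate the median was -0.45, and with that of heart muscle markers it was 0.80. The groups did not overlap in macrophage marker level (mean log2 6.42 to 7.25 in N1het stenosis, 4.82 to 5.81 in N1het healthy). The value of -0.45 is therefore an extrapolation, and the part of macrophages in the difference was not tested. Without N1het stenosis 2, the library with 10 reads of Ciita, the Ciita difference was -0.22. All 10 interstitial cell markers had a lower mean in the stenotic valves, with a median of -0.62. Of these markers, 0 were called and 6 had an unadjusted p under 0.05, beside 0.0334% and 9.6% of all genes. Their part in the class II values was not tested. By the agent field these stenotic mice had received XCT790 and the N1het healthy ones solvent, so that stenosis and agent cannot be told apart here under those labels.

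Against WT, N1het stenosis valves again had 0 of 7 genes called, beside 0.0334% of all genes, and 0 of 7 at an unadjusted p under 0.05, beside 10.4%. Voom called 0 of 7. H2-DMb1 differed by 0.88 ± 0.78 (SE; limma adjusted p = 0.740), and Cd74 by -0.04 ± 0.48 (adjusted p = 0.994). Ciita differed by -0.49 ± 0.61 (adjusted p = 0.825), and by 0.0017 without N1het stenosis 2. The median of the 7 genes was 0.53, 0.012 without N1het stenosis 3 and -0.78 with the macrophage marker level as a covariate. These groups did not overlap in macrophage marker level, so -0.78 is an extrapolation. By the agent field these stenotic mice had received XCT790, so agent and stenosis cannot be told apart here under those labels.

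XCT790 in healthy N1het valves came with higher means of all 7 class II genes, again short of the test. H2-Eb1 differed by 1.06 ± 0.41 (SE), H2-DMa by 1.20 ± 0.50 and H2-Aa by 0.98 ± 0.39 (each limma adjusted p = 1). Cd74 differed by 0.63 ± 0.38, H2-Ab1 by 0.57 ± 0.50, Ciita by 0.44 ± 0.48 and H2-DMb1 by 0.24 ± 0.62 (each limma adjusted p = 1). The median was 0.63 beside 0.03 over all genes, and 7 of 7 had a positive difference, beside 54% of all genes. Of the class II genes 0 of 7 were called, beside 0% of all genes, and 3 of 7 had an unadjusted p under 0.05, beside 2.65%. Voom called 0 of 7. The groups overlapped for each of the 7 genes, while 0.18% of all genes were higher and 0.0869% lower with XCT790 without overlap.

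The XCT790 difference in healthy valves moved with single libraries. Without N1het healthy XCT790 5, the highest library, the median fell to 0.32. Within the 15 libraries outside the deep set it was 1.03, with H2-Aa at 1.56 and H2-Eb1 at 1.47. When groups were formed by the agent field it was 1.20, with H2-DMb1 at -0.78. That field leaves only N1het healthy XCT790 4 and 5, the latter the highest library, as treated healthy valves. In none of these settings was a class II gene called.

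In stenotic valves the groups titled solvent and XCT790 were close in mean, with wide intervals. H2-Aa differed by -0.14 ± 0.53 (SE), with a 95% interval from -1.25 to 0.96, and Cd74 by 0.05 ± 0.51, from -1.01 to 1.10 (each limma adjusted p = 1). Intervals of this width do not show that the groups are alike. The median of the 7 genes was -0.11, and 0.35 without N1het stenosis 3. Of the class II genes 0 of 7 were called, beside 0% of all genes, and 0 of 7 had an unadjusted p under 0.05, beside 3.35%. Voom called 0 of 7. The difference between the XCT790 effects in stenotic and healthy valves was tested as an interaction. It was negative for all 7 genes, beside 46% of all genes, with H2-DMa at -1.38 ± 0.85, H2-Eb1 at -1.18 ± 0.69 and H2-Aa at -1.13 ± 0.66 (each limma adjusted p = 1). In it 0 of 7 were called, beside 0% of all genes, 0 of 7 had an unadjusted p under 0.05, beside 2.98%, and voom called 0 of 7. Its median of -0.59 was -0.22 without N1het stenosis 3, where Ciita turned to 0.17. By the agent field all stenotic mice had received XCT790. Under those labels neither contrast of this paragraph measures an XCT790 effect in stenotic valves.

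Among XCT790-treated mice, stenotic valves had a lower mean of 6 of the 7 genes than healthy ones, beside 46.6% of all genes. This direction rested on 1 library: the median of -0.24 turned to 0.13 without N1het stenosis XCT790 1. Ciita differed by -0.92 ± 0.58 (SE; limma adjusted p = 0.960) and Cd74 by -0.33 ± 0.45 (adjusted p = 0.991). Of the class II genes 0 of 7 were called, beside 0% of all genes, 0 of 7 had an unadjusted p under 0.05, beside 5.08%, and voom called 0 of 7. By the agent field some of these healthy mice had received solvent, so agent and stenosis are mixed here under those labels.

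Averaged over agents by title, stenotic valves had a lower mean of Ciita and higher means of both H2-DM chains than healthy N1het valves, short of the test. By the agent field all these stenotic mice had received XCT790, so agent and stenosis are mixed here under those labels. Ciita lay at 1.82 ± 1.17 FPKM (SD, n = 6) against 4.19 ± 3.43 (n = 11), a log2 difference of -0.82 ± 0.40 (SE; limma adjusted p = 0.452). H2-DMb1 differed by 0.88 ± 0.52 (adjusted p = 0.543) and H2-DMa by 0.65 ± 0.42 (adjusted p = 0.603), while Cd74 differed by -0.03 ± 0.32 (adjusted p = 0.985). Of the class II genes 0 of 7 were called, beside 0.374% of all genes, 0 of 7 had an unadjusted p under 0.05, beside 11.5%, and voom called 0 of 7. This is the comparison in which the test called most genes, and the class II genes were not among them. In the authors' deposited table, too, 0 of the 7 genes are marked as changed in any of its 5 comparisons, in which 26 to 281 genes are marked.

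**Figure D2:**
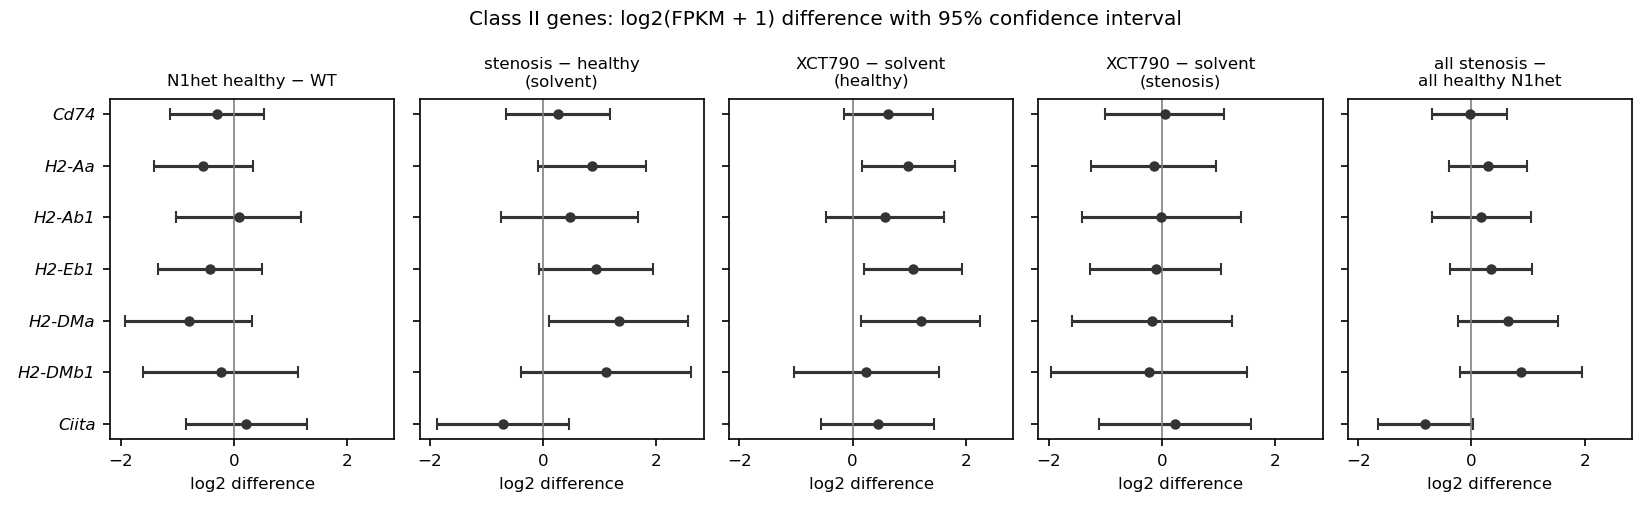
Difference in log2(FPKM + 1) of each class II gene (points) with its 95% confidence interval from limma (bars) in 5 comparisons. The H2-DMa interval with stenosis and the H2-Aa, H2-Eb1 and H2-DMa intervals with XCT790 in healthy valves lie above 0 before adjustment for the 14966 genes tested, and Ciita is the gene with a negative difference in the stenosis comparison on solvent.

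The class II genes varied together from library to library. Over the 21 libraries, Pearson's r of log2(FPKM + 1) was 0.94 between H2-Aa and H2-Eb1, 0.91 between Cd74 and H2-Aa and 0.89 between Cd74 and H2-Ab1. Each of H2-Eb1, H2-Aa and Cd74 was, of 14960 genes, the one most correlated with the mean of the other 6 class II genes, with r of 0.93, 0.92 and 0.91. H2-Ab1 ranked 3rd with 0.84, H2-DMa 24th with 0.69 and H2-DMb1 225th with 0.55. Ciita ranked 3449th with 0.23, the lowest of the 7. These correlations are descriptions, and libraries share depth and cell composition across genes.

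**Figure D3:**
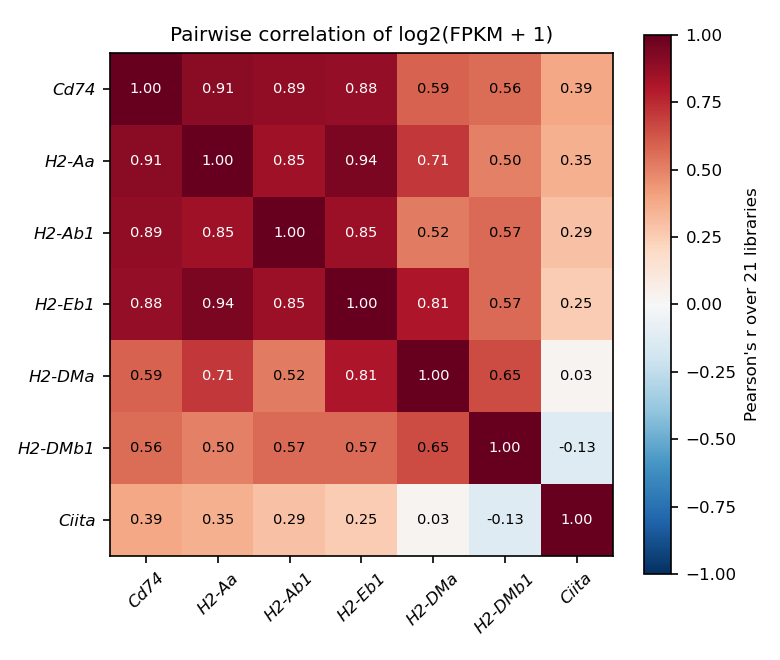
Pearson's r of log2(FPKM + 1) over the 21 libraries for each pair of class II genes, in colour from -1 to 1 and as numbers. Cd74, H2-Aa, H2-Ab1 and H2-Eb1 form a block of r from 0.85 to 0.94, the H2-DM genes lie lower, and the row of Ciita runs from -0.13 to 0.39.

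The relation of Ciita with the other 6 genes was tested by 100000 permutations of the libraries, adjusted over the 6 relations. Pearson's r was 0.39 with Cd74 (permutation p = 0.08, adjusted p = 0.349; Spearman's rho 0.30, adjusted p = 0.554), 0.35 with H2-Aa (adjusted p = 0.349; rho 0.16, adjusted p = 0.764) and 0.29 with H2-Ab1 (adjusted p = 0.398; rho 0.32, adjusted p = 0.554). It was 0.25 with H2-Eb1 (adjusted p = 0.401; rho 0.15, adjusted p = 0.764), 0.03 with H2-DMa (adjusted p = 0.896; rho -0.05, adjusted p = 0.826) and -0.13 with H2-DMb1 (adjusted p = 0.691; rho -0.10, adjusted p = 0.784). No relation passed. Without N1het healthy XCT790 5 and N1het stenosis 2, the libraries farthest from the median Ciita level, r was 0.01 with Cd74 and 0.04 with H2-Aa. With group means subtracted it was 0.39 with Cd74, 0.47 with H2-Aa, 0.33 with H2-Ab1, 0.34 with H2-Eb1, 0.11 with H2-DMa and 0.01 with H2-DMb1. Within the 15 libraries outside the deep set r with Cd74 was 0.38, and within the 6 deep libraries 0.56.

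Cd74, H2-Aa and H2-Eb1 kept their proportions more closely than their levels. The ratio of H2-Aa to H2-Eb1 stayed between 1.81 and 3.88, and that of Cd74 to H2-Aa between 1.22 and 2.57, while H2-Aa itself spanned 10.05-fold and Cd74 6.26-fold. The ratio of H2-Ab1 to H2-Aa, the chains of 1 molecule, lay between 0.810 and 1.36 in 19 libraries, at 0.335 in WT 4 and at 1.87 in N1het healthy 3. WT 4 had 1164 reads of H2-Ab1 and 3228 of H2-Aa. The peptide editor was less balanced, with a ratio of H2-DMb1 to H2-DMa from 0.0604 in N1het healthy XCT790 4 to 1.15 in N1het healthy 3.

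Ciita relative to a class II chain spanned 30.0-fold. Its reads per 1000 reads of H2-Aa numbered 2.25, 10.7 and 13.9 in the N1het stenosis libraries and 18.8 to 67.5 with a median of 30.6 in N1het healthy, and these ranges did not overlap. This ratio was singled out after its values were seen and has no test. In N1het stenosis XCT790 it was 3.06, 24.5 and 25.3, which overlaps N1het healthy, and WT 3 had 3.17. Low values thus occurred in WT and in stenotic valves with and without XCT790 by title.

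**Figure D4:**
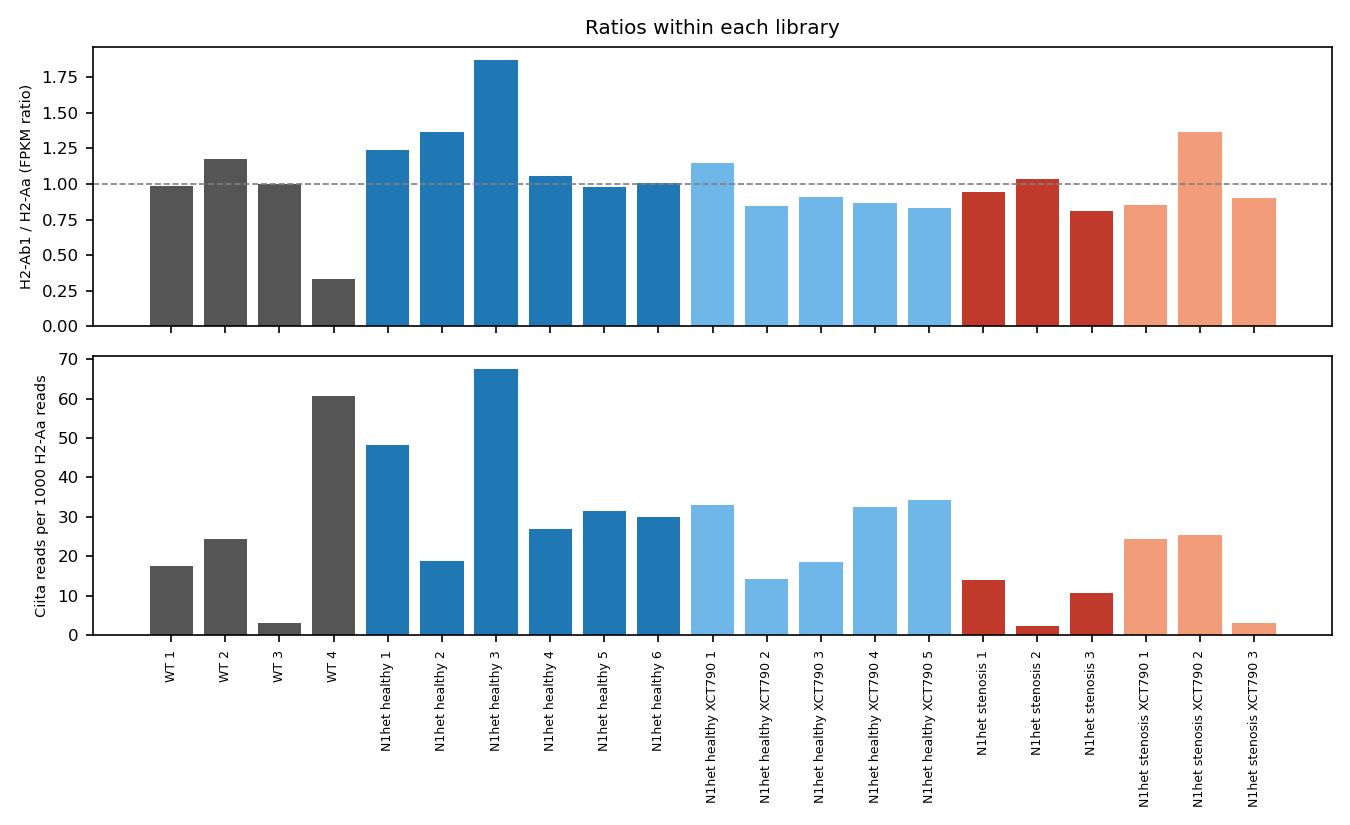
Ratio of H2-Ab1 to H2-Aa in FPKM (top, dashed line at 1) and Ciita reads per 1000 H2-Aa reads (bottom) in each library, in colours by group and with axes from 0. The chain ratio is near 1 except in WT 4 (0.335) and N1het healthy 3 (1.87), and the Ciita ratio runs from 2.25 to 67.5.

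Markers of the cells that carry class II molecules were measured beside them. Of the macrophage list, 19 genes were in the table, and their summed level was 1502 to 2733 FPKM in WT, 1202 to 2800 in N1het healthy and 1603 to 4759 in N1het healthy XCT790. It was 4454 to 7933 in N1het stenosis and 2346 to 9383 in N1het stenosis XCT790. N1het stenosis valves lay above WT and N1het healthy valves without overlap. All 19 had a higher mean in N1het stenosis than in N1het healthy, beside 46.8% of all genes, with a median log2 difference of 1.30. Of these, 0 of 19 were called, beside 0.0334% of all genes, and 16 had an unadjusted p under 0.05, beside 9.6%, led by C1qa (1.59 ± 0.35, SE, limma adjusted p = 0.126), a chain of complement C1q, and Lyz2 (1.89 ± 0.45, adjusted p = 0.152), lysozyme of myeloid cells. Over all stenotic against healthy N1het valves, 0.374% of all genes were called. Lyz2 was among them, at 1.61 ± 0.32 (limma adjusted p = 0.0250). So were 3 of the 10 interstitial markers, the matrix genes Dcn at -0.64 ± 0.11 (adjusted p = 0.0142), Mfap4 at -1.54 ± 0.28 (adjusted p = 0.0171) and Lum at -0.60 ± 0.13 (adjusted p = 0.0491). Of 36 other settings, Dcn was called in 32, Mfap4 in 30, Lyz2 in 28 and Lum in 13. In bulk tissue, more or fewer cells of a type and more or less RNA per cell cannot be told apart.

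Genes of other antigen-presenting cells were far lower. The 13 dendritic cell markers summed to 5.43 to 84.0 FPKM over the 21 libraries. The lists hold different genes, so their sums do not compare numbers of cells. Of the 10 genes of the B cell list, 7 were at 0 in 10 or more libraries, among them Ms4a1 in 17 and Pax5 in 19. Ighm, the heavy chain of IgM, averaged 31.8 FPKM with reads in each library, and Blnk, an adaptor of B cell receptor signalling, 2.96 FPKM with 0 in 1 library. Blnk differed by 1.29 ± 0.58 (SE; limma adjusted p = 0.476) between N1het stenosis and N1het healthy. Of the 9 T cell genes, 7 were at 0 in 11 to 16 libraries, Cd3e in 13, and Cd4 and Cd247 had reads in each library. Cd4, whose product binds class II molecules, lay at 7.41 ± 1.66 FPKM (SD, n = 3) in N1het stenosis and 2.19 ± 1.81 (n = 6) in N1het healthy without overlap, a log2 difference of 1.57 ± 0.65 (SE; limma adjusted p = 0.424). Of all genes, 2.72% were higher in N1het stenosis without overlap. The other tested T cell genes differed in the opposite direction, Cd3g by -0.28 ± 0.79 (limma adjusted p = 0.944) and Cd247 by -0.42 ± 0.44 (adjusted p = 0.817). The part of dendritic, B and T cells in the class II levels was not tested.

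Across libraries, 5 of the 7 class II genes correlated with the macrophage markers by Pearson's r, H2-DMb1 by Spearman's rho alone, and Ciita by neither. With the mean log2(FPKM + 1) of the 19 markers, Pearson's r was 0.71 for H2-Eb1 (permutation adjusted p = 0.00217 over 7 relations; Spearman's rho 0.68, adjusted p = 0.00388), 0.66 for H2-Aa (adjusted p = 0.0043; rho 0.69, adjusted p = 0.00388) and 0.61 for H2-Ab1 (adjusted p = 0.00712; rho 0.65, adjusted p = 0.00441). It was 0.54 for Cd74 (adjusted p = 0.0198; rho 0.46, adjusted p = 0.0428), 0.52 for H2-DMa (adjusted p = 0.0203; rho 0.59, adjusted p = 0.0106) and 0.39 for H2-DMb1 (adjusted p = 0.0908; rho 0.55, adjusted p = 0.015). For Ciita it was -0.04 (adjusted p = 0.858; rho -0.09, adjusted p = 0.702). Without N1het stenosis 3 and N1het stenosis XCT790 3, the libraries farthest from the median marker level, r was 0.60 for H2-Eb1, 0.53 for H2-Ab1, 0.52 for H2-Aa, 0.45 for H2-DMa, 0.39 for Cd74 and 0.24 for H2-DMb1. Within the 15 libraries outside the deep set it was 0.68 for H2-Eb1 and 0.58 for Cd74, and within the 6 deep ones 0.88 and 0.82. With group means subtracted it was 0.70 for H2-Eb1, 0.69 for Cd74, 0.65 for H2-Aa and for H2-Ab1, 0.34 for H2-DMa, 0.20 for H2-DMb1 and 0.25 for Ciita. The permutations moved libraries between groups, so differences between groups enter the p-values above.

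**Figure D5:**
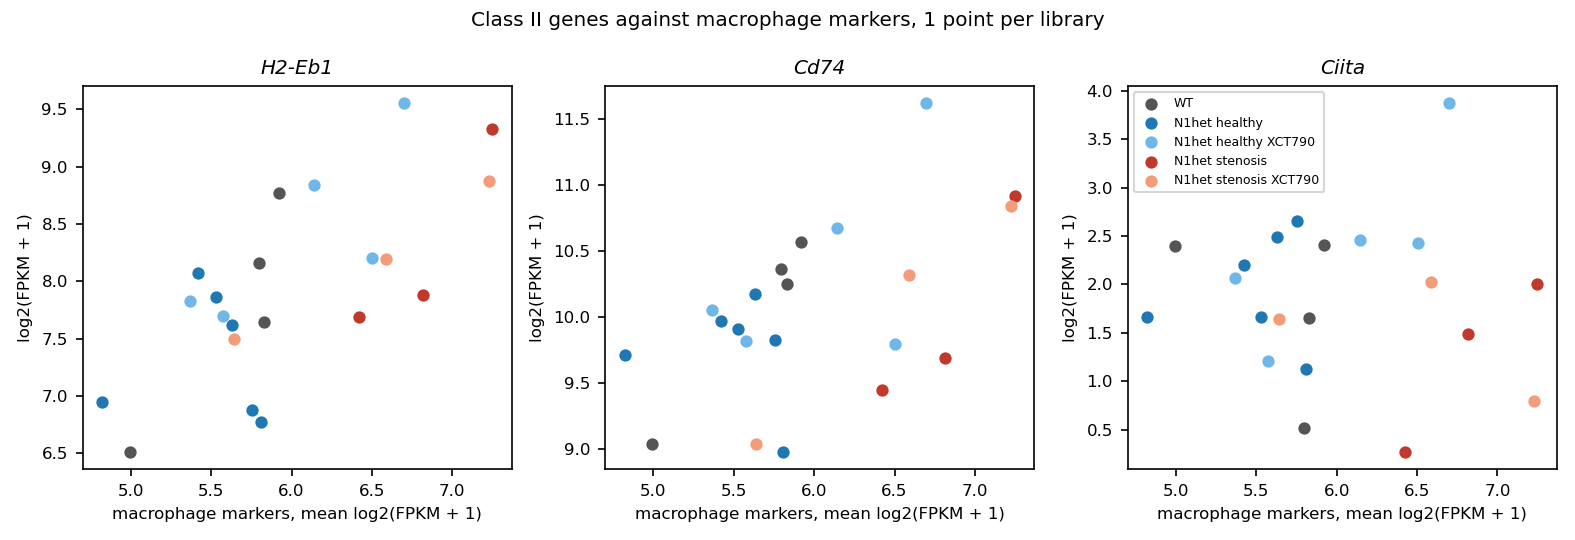
Level of H2-Eb1, Cd74 and Ciita (vertical axes, log2(FPKM + 1)) against the mean log2(FPKM + 1) of 19 macrophage markers (horizontal axes), 1 point per library, coloured by group. H2-Eb1 (r = 0.71) and Cd74 (r = 0.54) are higher where the markers are higher, and Ciita (r = -0.04) is not. The N1het stenosis libraries (6.42 to 7.25) lie to the right of WT and N1het healthy. N1het stenosis XCT790 (5.64 to 7.23) and N1het healthy XCT790 (5.37 to 6.70) overlap each of these groups.

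The class II genes were also set against the macrophage markers group by group. The mean log2 level of the 7 genes minus that of the markers was 1.23 ± 0.45 in WT (SD, n = 4), 1.09 ± 0.60 in N1het healthy (n = 6) and 1.26 ± 0.70 in N1het healthy XCT790 (n = 5). It was 0.36 ± 0.38 in N1het stenosis (n = 3) and 0.65 ± 0.33 in N1het stenosis XCT790 (n = 3). When the marker level was subtracted from every gene before the fit, an alternative added after the data were seen, 2 of the 7 were called in N1het stenosis against N1het healthy: Cd74 at -1.08 (limma adjusted p = 0.0280) and Ciita at -2.05 (adjusted p = 0.0220). On that scale 42.4% of all genes were called lower, and 2 of 7 is no larger a share. Over all stenotic against healthy N1het valves the same genes were called, Cd74 at -0.92 (adjusted p = 0.0233) and Ciita at -1.70 (adjusted p = 0.0193), beside 25.8% of all genes called lower. With the marker level as a covariate instead, 0 of 7 were called, beside 0% of all genes, and the median difference was -0.45, and -0.56 over all stenotic against healthy N1het valves. N1het stenosis and N1het healthy did not overlap in marker level, so the value of -0.45 is an extrapolation.

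The 10 genes with the highest Pearson r to the class II mean over the 21 libraries were taken as those most like it. Gpr183, an oxysterol receptor of immune cells, had r of 0.86, Sfpi1, which encodes the myeloid factor PU.1, 0.84, and Was, the Wiskott-Aldrich gene of blood cells, 0.83. Laptm5 had 0.76, AC147612.2 0.76, the phosphatase gene Dusp1 0.76, the leukocyte gene Cd52 0.75, the macrophage growth factor receptor gene Csf1r 0.74, Evi2a 0.73 and Plbd1 0.72. These values describe the 21 libraries and carry no test.

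Of the remaining class II molecules, H2-Oa and H2-Ob, whose products inhibit the peptide editor, averaged 2.57 and 2.05 FPKM, and H2-DMb2 1.82 FPKM. H2-Eb2 was at 0 in 18 libraries. H2-Ea, the α chain gene of I-E, was not among the 4 genes found, so the values do not show an I-E pair. None of the 3 tested was called in any comparison, in which 0% to 0.374% of all genes were called. H2-Oa lay at 6.23 ± 5.70 FPKM (SD, n = 5) in N1het healthy XCT790 and 1.94 ± 3.64 (n = 6) in N1het healthy, a log2 difference of 1.66 ± 0.58 (SE; limma adjusted p = 1), and N1het healthy XCT790 5 again had the highest level, at 16.4 FPKM.

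Of 11 tested genes of the endosomal route, 10 had a higher mean in N1het stenosis than in N1het healthy valves, beside 46.8% of all genes. Their median log2 difference was 0.58, and 0 were called, beside 0.0334% of all genes. Ctss, the protease that makes the last cut of the invariant chain, lay at 468 ± 239 FPKM (SD, n = 3) against 129 ± 50.1 (n = 6), a difference of 1.87 ± 0.57 (SE; limma adjusted p = 0.266). March1, a ubiquitin ligase that removes class II molecules from the surface, differed by 1.53 ± 0.49 (adjusted p = 0.294), and Ifi30, the lysosomal thiol reductase, by 1.13 ± 0.40 (adjusted p = 0.331). Over all stenotic and healthy N1het valves 10 of 11 again had a higher mean, with a median of 0.43 and 0 called, beside 0.374% of all genes called.

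Of 18 tested regulators of class II transcription, 12 had a higher mean in N1het stenosis than in N1het healthy valves, beside 46.8% of all genes. Their median was 0.07, and 0 were called, beside 0.0334% of all genes. Ifngr2, a chain of the interferon γ receptor, differed by 0.55 ± 0.20 over all stenotic and healthy N1het valves (SE; limma adjusted p = 0.278). Rfx5, a subunit of RFX, differed by 1.02 ± 0.35 between N1het healthy and WT (adjusted p = 0.519). Of 6 tested co-stimulatory genes, 5 had a higher mean in N1het stenosis than in N1het healthy, beside 46.8% of all genes. Their median was 0.92, and 0 were called, beside 0.0334% of all genes. Cd80 and Cd86, which give T cells the second signal, differed by 1.71 ± 0.55 (adjusted p = 0.294) and 1.52 ± 0.62 (adjusted p = 0.419).

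The MHC class I genes, which present peptides from inside the cell, offered a comparison. Of 10 tested, 1 was called over all stenotic against healthy N1het valves, the heavy chain gene H2-K1, beside 0.374% of all genes. It lay at 315 ± 77.1 FPKM (SD, n = 6) against 171 ± 46.5 (n = 11), a log2 difference of 0.88 ± 0.19 (SE; limma adjusted p = 0.0378), whereas the class II chain H2-Aa lay at 0.30 ± 0.33 (adjusted p = 0.794) in the same comparison. The class II genes ran from -0.82 (Ciita) to 0.88 (H2-DMb1) there, and the class I genes from -0.43 (Nlrc5) to 1.00 (Tap1). Whether these differences differ from each other was not tested. The call of H2-K1 held in 20 of 36 other settings. Its adjusted p was 0.174 without N1het stenosis 3, 0.155 without N1het stenosis XCT790 3, 0.364 without the deep set and 0.858 with the macrophage marker level as a covariate, and with that level subtracted its difference was -0.0040.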

How the data were processed

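Valve RNA came from a Qiagen micro column and was amplified with a NuGEN Ovation kit, per the labels' protocols. HISAT2, SAMtools, Picard, FastQC and the build mm9 appear in the submitters' processing notes. Neither labels nor headers name the counting program, the annotation or the strand setting. The authors deposited 1 table of FPKM per gene and library, with their own marks of changed genes. Each nonzero FPKM was a whole multiple of a step per gene and library, and 100% came out as whole reads within 0.01 reads. The smallest whole numbers that matched were taken for each gene, so a gene with reads in only 1 library came out whole by construction.

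limma 3.58.1 (R 4.3.3, statmod 1.5.0) was fitted with trended, robust variances to log2(FPKM + 1). Genes under a mean of 1 FPKM (5906) were left out and 14966 tested, in 5 group means over 21 libraries and 8 contrasts, and p was adjusted by Benjamini and Hochberg. The table holds FPKM, so voom on the recovered reads was an alternative and no count model was the main test. The fit was tested on simulated data. Permutations used Python 3.11.15 with numpy 2.4.6. Overlapping genes and near-identical copies may share reads.

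The 7 class II genes are always named. Genes of the 14 lists (152 genes) are named up to 4 per list and comparison by smallest p, plus called genes and genes at 0 throughout, and some are not reported here. Ighm, Cd3e, Pax5 and Ms4a1 were chosen after their values were seen. The 10 genes nearest the class II mean are named. Members and lists were chosen with earlier results of these data known. Alternatives covered the pseudocount, filters, scaling, the groups fitted, a replicate block, the agent field, covariates, the deep libraries and leaving out each library.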

Additional observations from a re-analysis of the deposited data

Results flagged for a closer look

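Extreme libraries were looked for within groups of 4 to 10 libraries, in 24 sets of values, and 3 were found. Chance alone gives about 1 in 20. In N1het healthy valves, H2-Aa was lowest in replicate 6, at 7.62 on the log2(FPKM + 1) scale, with the next library at 8.61. This library and WT 4 were the richest of their groups in heart muscle markers, at a mean log2(FPKM + 1) of 7.09 and 6.54. In WT the log2 ratio of H2-Ab1 to H2-Aa was lowest in replicate 4, at -1.58, with the next at -0.0157. In N1het healthy XCT790 the same ratio was highest in replicate 1, at 0.202, with the next at -0.134.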

How the results depend on the processing

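In each of the 8 contrasts, 0 of the 7 class II genes were called under each of the settings named with the methods, leaving out each of the 21 libraries included. Grouping by the agent field allowed 3 of the 8 contrasts. With the macrophage marker level subtracted, which was added after seeing the data, 2 genes were called in N1het stenosis against N1het healthy and 2 over all stenotic against healthy N1het valves. Cd74 turned from 0.26 to -1.08 there in the first comparison, and H2-K1 from 0.88 to -0.0040 in the second. Over 37 settings, the sign of a class II gene's difference changed in 134 of 1980 values. With 1 library left out, the median difference of the 7 genes ran from 0.40 to 1.21 for N1het stenosis against N1het healthy, from 0.32 to 0.90 for XCT790 in healthy valves, and from -0.79 to -0.08 for N1het healthy against WT. With the macrophage level as a covariate, the first of these was -0.45, an extrapolation between groups that did not overlap in that level.

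A replicate block gave 0 called class II genes in each contrast and a median of 0.74 for N1het stenosis against N1het healthy. It called 19 genes in all in that contrast (5 without the block) and 97 over all stenotic against healthy valves (56 without). The mean r of same-numbered libraries between groups was 0.0104 over 34 pairs, and 3 exceeded 0.1. For libraries of other numbers it was -0.0026 over 139 pairs, and 11 exceeded 0.1. Whether the numbers pair samples cannot be told from these values. Over all stenotic against healthy valves, voom called 68 genes, the covariate of macrophage level 0, and leaving out 1 library gave 2 (without N1het stenosis 3) to 77. The edgeR alternative was not run, since the table holds FPKM. The 3 libraries of each stenotic group limit the precision, and the 10 reads of Ciita in 1 of them limit its level.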

Other observations

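Rare immune transcripts stood high in different single libraries. Among B cell genes, Pax5 reached 8.48 FPKM in N1het stenosis XCT790 3 and Cd79b 9.21 FPKM in N1het healthy XCT790 5. Among T cell genes, Cd8a reached 12.7 FPKM in N1het healthy 3 and Cd3e 7.61 FPKM in WT 2. Cd209a, a lectin of monocyte-derived dendritic cells, reached 50.3 FPKM in N1het healthy XCT790 4, where the median over the 21 libraries was 1.14 FPKM. Batf3, a factor of cross-presenting dendritic cells, averaged 4.43 ± 0.833 FPKM (SD, n = 5) in N1het healthy XCT790 and 1.38 ± 1.87 (n = 6) in N1het healthy, a log2 difference of 1.49 ± 0.50 (SE; limma adjusted p = 1). These genes were singled out after their values were seen. The other tested dendritic cell markers went both ways in that comparison. Ccr7 differed by -0.86 ± 0.55 (SE), Zbtb46 by -0.49 ± 0.29 and Siglech by -0.12 ± 0.54. Clec9a differed by 0.14 ± 0.46, Itgax by 0.33 ± 0.59, Clec10a by 0.56 ± 0.45 and Mgl2 by 1.05 ± 0.63.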
